A study of Mus musculus with 25 samples.

Results

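Gc, Ttr, Loxl4, Dpp4, Fap and Epcam are 6 genes known as markers of primary alpha cells and whose products are secreted or sit at the cell surface. They were followed here in a pair of mouse islet cell lines. The members were the RNA-seq entries with these symbols, 6 of 24439 genes, and the ATAC-seq peaks whose annotated nearest gene was a member, 32 of 65053 peaks. Gc and Dpp4 had 8 peaks each, Ttr had 7, Epcam had 4, Fap had 3 and Loxl4 had 2.

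The alpha line was alpha TC1 clone 6 (αTC1) and the beta line was beta-TC-6 (βTC6), both bought from ATCC. Neither was given any treatment beyond its own growth medium. The media differed between the lines in the base medium product, serum and supplements, with glucose listed as an addition for αTC1 alone. RNA-seq libraries came from 3 replicates of each line and ATAC-seq libraries, which read out open chromatin, from 5 replicates of each line. A further 9 ATAC-seq libraries were made from counted mixtures of both lines in steps of 10% of cells. Each line is 1 culture-adapted line standing for its cell type, and whether replicates were separate cultures is not given in the sources used here, so p-values measure only the spread between these samples, which may be technical.

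Several of these products act outside the cell. Gc is the vitamin D-binding protein of blood, a member of the albumin family. Ttr, transthyretin, carries thyroxine and, through retinol-binding protein, retinol. Loxl4 is a lysyl oxidase-like enzyme that cross-links collagen and elastin. Dpp4 and Fap are related membrane serine proteases that cleave after proline, and Dpp4 inactivates the incretin hormones, among them the glucagon-like peptide that is cut from the product of Gcg. Epcam is an epithelial adhesion molecule. On chromosome 2 Gcg, the glucagon gene, lies between Dpp4 and Fap.

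The stretches printed here are the regions on which the comparison of the lines turned, 200 bases each from the + strand of the NCBIM37 (mm9) reference. The first 3 come from the peaks nearest to the start sites of the genes detected almost only in βTC6, the next pair are distal regions more open in βTC6, and the last pair are regions more open in αTC1. Capitals mark exact matches, on either strand, to the HNF1 half-site GTTAAT, the E-box CAGCTG or the AP-1 motif TGANTCA, and stretches without capitals hold none of the 7 motifs searched.
Gc start-site peak, chr5:89886793-89886992: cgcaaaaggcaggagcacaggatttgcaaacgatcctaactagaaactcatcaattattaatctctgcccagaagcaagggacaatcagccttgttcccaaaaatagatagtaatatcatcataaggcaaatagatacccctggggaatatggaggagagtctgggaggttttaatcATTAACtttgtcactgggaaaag
Dpp4 start-proximal peak, chr2:62249649-62249848: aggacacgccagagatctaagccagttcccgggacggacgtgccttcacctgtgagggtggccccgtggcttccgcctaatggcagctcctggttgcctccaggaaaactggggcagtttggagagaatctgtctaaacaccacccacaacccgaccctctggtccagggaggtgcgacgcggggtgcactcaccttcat
Epcam start-proximal peak, chr17:88036159-88036358: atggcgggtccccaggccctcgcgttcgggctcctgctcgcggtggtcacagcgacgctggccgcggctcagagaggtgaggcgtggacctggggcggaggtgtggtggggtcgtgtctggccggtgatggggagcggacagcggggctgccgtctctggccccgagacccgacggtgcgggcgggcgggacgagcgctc
Dpp4 intron, chr2:62243077-62243276: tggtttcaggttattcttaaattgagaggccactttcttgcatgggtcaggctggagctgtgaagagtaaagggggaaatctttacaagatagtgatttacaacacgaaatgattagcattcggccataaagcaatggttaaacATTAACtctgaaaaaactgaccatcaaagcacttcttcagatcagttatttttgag
Gc distal, inside Slc4a4, chr5:89652274-89652473: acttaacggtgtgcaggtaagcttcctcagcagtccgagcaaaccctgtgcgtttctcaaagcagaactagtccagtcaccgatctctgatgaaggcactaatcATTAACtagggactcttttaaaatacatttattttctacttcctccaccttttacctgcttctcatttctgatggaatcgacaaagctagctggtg
Gc distal, inside Slc4a4, chr5:89630567-89630766: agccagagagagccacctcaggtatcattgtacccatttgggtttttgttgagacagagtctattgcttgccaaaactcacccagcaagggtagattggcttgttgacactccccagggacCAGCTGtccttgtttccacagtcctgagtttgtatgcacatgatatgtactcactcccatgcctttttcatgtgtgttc
Loxl4 distal, inside D19Ertd386e, chr19:42643671-42643870: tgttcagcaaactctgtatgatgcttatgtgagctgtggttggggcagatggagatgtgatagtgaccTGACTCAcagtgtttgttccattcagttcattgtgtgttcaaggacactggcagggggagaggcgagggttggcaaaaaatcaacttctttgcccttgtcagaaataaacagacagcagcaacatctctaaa

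The other motifs searched were the forkhead motif TGTTTAC, the homeodomain motif TAATTA, the Maf half-site TGCTGAC and the CRE half-site TGACGT, all in the 200 bases around each peak centre and on both strands. The HNF1 half-site was found in 8 of the 32 marker peaks, against 8.87% of all peaks. It was also in peaks that were not called between the lines. Among them were Dpp4 at 77640, Gc at 239442 and Fap at -15763 bases, with log2 fold changes of βTC6 over αTC1 of 0.42, -0.09 and 0.88. The half-site can overlap the homeodomain motif, which was found in 5 of the 32, against 6.92%. The E-box was found in 6 of the marker peaks and 17.2% of all peaks, and AP-1 in 6 and 10.6%. None of the 32 held the forkhead motif, the Maf half-site or the CRE half-site, which 6.32%, 4.86% and 3.88% of all peaks held. A match says only that these letters are in the window. The stretches printed for the start-proximal peaks of Dpp4 and Epcam were moved off the peak centre to leave out untranslated sequence. The Gc start-site stretch was 41.0% GC and those printed for Dpp4 and Epcam 61.0% and 75.0%, beside a median of 48.5% over the centres of all peaks.

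The libraries held 21795367 to 25876765 RNA-seq counts over genes and 4397851 to 10374903 ATAC-seq reads in peaks. The alpha-cell markers Gcg, Irx1, Irx2 and Pou3f4 were called higher in αTC1 and the 8 beta-cell markers examined higher in βTC6. Pou3f4 and 6 of those 8 reached the expression filter of 1 FPKM through the higher line alone, so a difference was partly built into their selection. Levels are given in FPKM, the fragments mapped to a gene scaled for transcript length and for the library's total. Pou3f4 was at 48.1 to 53.1 FPKM in αTC1 and 0.38 to 0.43 in βTC6, and Ins1 and Pdx1 were at 0 in every αTC1 library. The somatostatin gene Sst, a delta-cell marker, was at 207 to 325 FPKM in βTC6 and 0 in αTC1. Ppy, pancreatic polypeptide, was at 50.8, 3.70 and 23.4 FPKM in βTC6 and at most 0.10 in αTC1. Of the ductal, acinar, endothelial and immune genes listed, those that reached the expression filter were Spp1, at 4.10 to 13.2 FPKM, and Cd68, at 0.92 to 2.18 FPKM, and neither was called. Of 6 mesenchymal genes Col1a2, at 1.26 to 2.12 against 0.08 to 0.23 FPKM, and Pdgfra, at 1.04 to 1.17 against 0.13 to 0.28, were called higher in αTC1, with log2 fold changes of -3.55 and -2.51, both having passed the filter through αTC1 alone, and Col3a1 was at 0 in every library. The 6 summed to 2.58 to 3.87 FPKM in αTC1 and 0.74 to 1.53 in βTC6. Of 6 liver genes Alb was called higher in αTC1 and Apoa2 higher in βTC6, the latter at 15.1 to 17.4 against 2.59 to 4.72 FPKM (log2 fold change 2.11). Serpina1a, at 6.31 to 9.13 FPKM in αTC1 and 6.40 to 22.8 in βTC6, was not called. The part of such genes in the differences described here was not tested. The αTC1 RNA-seq replicates 1 and 2 differed by more than sampling noise, with a chi-square of 2.03 per gene, but by far less than either did from replicate 3, at 26.3 and 27.8. In ATAC-seq, replicates 1 to 3 of a line differed from one another by 2.06 to 2.54 per peak and from replicates 4 and 5 by 4.38 to 10.5. The peak with most reads took 0.614 to 0.831% of the reads in replicates 1 to 3, 1.35 to 5.63% in replicates 4 and 5 and 1.84 to 4.89% in the mixtures.

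Gc, Dpp4 and Epcam were expressed in the beta line and not in the alpha line. The study had already named these 3, from the same RNA-seq data, among primary alpha-cell genes without expression in αTC1. Their absence there was therefore known beforehand. Ttr was abundant in both lines, and Fap and Loxl4 were at or near the limit of detection in both. A call required a Benjamini-Hochberg adjusted p from edgeR below 0.05 and a log2 fold change beyond 2 in either direction. Only genes that reached 1 FPKM in every library of αTC1 or every library of βTC6 were fitted. Of the 6 markers 4 entered, and 3 of them passed that filter through βTC6 alone, so a difference was partly built into their selection. Over all 12195 genes tested, 10.2% were called higher in βTC6 and 4.08% higher in αTC1.

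Gc was at 11.97, 8.97 and 7.58 FPKM in the βTC6 replicates and at 0 in all 3 αTC1 replicates. Its counts were 511, 386 and 309 against 0, 0 and 0, so the lines did not overlap and no αTC1 library held a single read. Set against a floor of 3 counts per library, Gc was at least 129-fold higher in βTC6. The edgeR adjusted p was 1.46e-06, and the fold itself could not be estimated from the fit because 1 line was at 0.

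Epcam followed the same pattern, with 13.1, 10.9 and 8.28 FPKM in βTC6 and 0 in every αTC1 library. The counts were 687, 576 and 415 against 0, 0 and 0. Against the floor of 3 counts per library it was at least 180-fold higher in βTC6 (edgeR, adjusted p = 9.8e-07). Replicate 1 was the highest of the βTC6 libraries for Gc, for Epcam and for Dpp4.

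Dpp4 was at 13.7, 7.22 and 9.25 FPKM in βTC6 and at 0, 0 and 0.01 in αTC1. A single read was counted in αTC1, in replicate 3, beside 1781, 981 and 1148 in βTC6. The ratio of summed counts, scaled for library size, was 3802 with an exact 95% interval of 682 to 150227 that covers counting error only (edgeR, adjusted p = 9.1e-08). In 1 exon Dpp4 shares 232 bases with an exon of Gm13561 on the opposite strand. The library kit kept strand, but the study's methods give RSEM with default parameters, which do not use it, so reads from those bases may be shared.

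Ttr was the only one of the 6 with high expression in both lines. It was at 920, 929 and 657 FPKM in αTC1 and at 1223, 1580 and 544 FPKM in βTC6. The βTC6 replicates held both the 2 highest and the lowest of the 6 values, so the lines overlapped. The means were 835 ± 154 and 1116 ± 526 FPKM (SD, n = 3), and the log2 fold change was 0.48 with a standard error of 0.33, which was not past the threshold (edgeR, adjusted p = 0.215). The interval of 2 standard errors ran from -0.18 to 1.14. The value depended on single βTC6 libraries. Without replicate 3 the log2 fold change was 0.81 (adjusted p = 0.00473), still short of the fold required for a call, and without replicate 2 it was 0.11.

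Fap was listed at 0.02, 0.03 and 0.03 FPKM in αTC1, which is 1 read in each library, and at 0 in βTC6. Loxl4 had 4, 2 and 2 counts in αTC1 and 2, 0 and 2 in βTC6. Both genes were at or close to the floor of 3 counts per library, so expression of either could not be told from none at this depth and no fold is given.

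Compared per length, the order within αTC1 was Ttr first by a wide gap and all the others at 0.08 FPKM or less. Within βTC6 Ttr again came first. Epcam, Dpp4 and Gc followed at 10.7 ± 2.40, 10.1 ± 3.33 and 9.51 ± 2.24 FPKM (SD, n = 3), with ranges over the replicates that overlapped among the 3 genes, and Fap and Loxl4 came last.

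**Figure D1:**
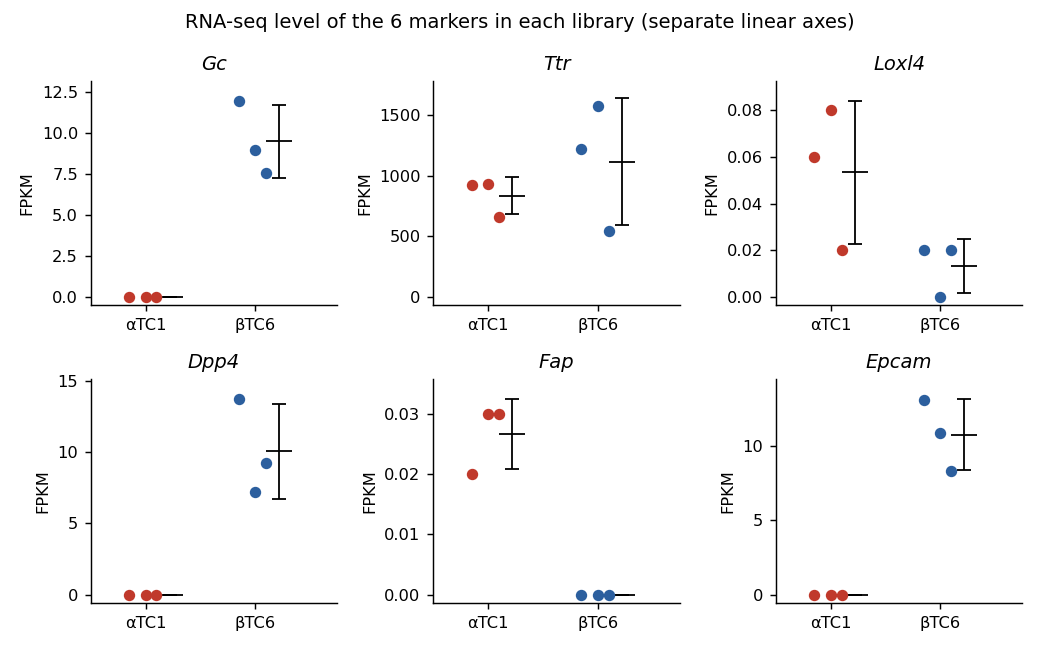
RNA-seq level of each of the 6 genes, in FPKM on a linear axis of its own. Points are the 3 libraries of each line, and the horizontal line with its bar is the mean with 1 SD. Gc, Dpp4 and Epcam sit at 7.22 FPKM or above in every βTC6 library and at 0.01 or below in every αTC1 library, whereas Ttr overlaps between the lines and Fap and Loxl4 stay at or below 0.08 FPKM.

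The tested genes whose levels over the 6 RNA-seq libraries were closest to each marker were found by the Euclidean distance of log2(FPKM + 1). For Gc these were Ret, Epcam and Grb7, at distances of 0.26, 0.30 and 0.34. For Epcam they were Grb7, Hnf4a and Gc, at 0.14, 0.28 and 0.30. Those of Dpp4 included Cdhr5 and Gc, at 0.39 and 0.42. No gene was as close to Ttr, for which the nearest, Hsp90ab1, Rps27a and Rps16, were at 1.23, 1.36 and 1.41. The measure reflects level and pattern over 6 libraries only.

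Chromatin at the markers was compared as log2(normalized read count + 1) per peak, fitted with limma over all peaks. The normalized read count is the number of reads in a peak scaled by the authors to the effective library size, in which 1 read is the lowest value listed, and the log2 fold change on this scale understates the change of low peaks. Of the 32 peaks, 7 were called higher in βTC6, where 12.9% of all peaks were called, and 2 were called higher in αTC1, where 5.38% of all peaks were called. The counts were 11 and 3 with edgeR on the recovered reads, 5 and 3 after quantile normalization, and 2 and 0 with a pseudocount of 5. With that pseudocount the Dpp4 peaks at 523 and -8034 bases from the start site and the Epcam peak at 798 bases fell short of the fold, at 1.70, 1.74 and 1.60, and those that stayed called were the Dpp4 peak at 7111 and the Gc peak at 234549 bases. By the adjusted p alone 17 were higher in βTC6 and 7 in αTC1, beside 39.9 and 38.1% of all peaks. The libraries of the lines did not overlap in 21 of the 32, beside 63.9% of all peaks. The median log2 fold change was 0.58 over the 32 peaks and 0.00 over all peaks.

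Dpp4 had the most called peaks, 4 of its 8, all more open in βTC6. The peak nearest to its start site has its centre 523 bases downstream and does not reach the start itself. It had normalized read counts of 3.92, 3.23, 1.95, 3.55 and 4.04 in the αTC1 replicates and 22.6, 23.4, 18.4, 29.2 and 17.7 in the βTC6 replicates. The lowest βTC6 library was above the highest αTC1 library, and the log2 fold change was 2.43 with a standard error of 0.19 (limma, adjusted p = 4.29e-10).

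The peak with the greatest difference at Dpp4 lies in an intron 7111 bases downstream of the start site, and its centre is printed above. It read 1.40, 1.12, 1.65, 1.36 and 1.59 in αTC1 and 19.9, 25.2, 19.9, 21.4 and 17.8 in βTC6. The log2 fold change was 3.17 with a standard error of 0.18 (limma, adjusted p = 6.15e-12), and the αTC1 values stood on 8 to 11 reads.

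Another called peak lies 8034 bases upstream of Dpp4, at 2.63 ± 1.17 in αTC1 and 20.5 ± 3.64 in βTC6 (SD, n = 5), a log2 fold change of 2.60. The last lies 115857 bases downstream of the start site, at chr2:62134045-62134817 over a coding exon of Slc4a10, the neighbouring bicarbonate transporter gene, and read 2.14 ± 1.03 against 13.7 ± 1.88, a log2 fold change of 2.27. Replicates 4 and 5 alone gave 1.72 for this peak and quantile normalization 1.94, both under the fold required. Slc4a10 itself was at 6.23 ± 1.25 FPKM in βTC6 and 0.39 ± 0.15 in αTC1 (SD, n = 3) and passed the expression filter through βTC6 alone. The nearest-gene annotation does not tell which of these genes the region belongs to.

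The other 4 peaks of Dpp4 were not called. Those 77640, 43743 and 29068 bases downstream of the start site were open in both lines, at 20.7 to 48.6 in every library, with log2 fold changes of 0.42, 0.20 and -0.16. The first of these, at 31.8 ± 1.91 in αTC1 and 43.1 ± 6.11 in βTC6 (SD, n = 5), passed the adjusted p without reaching the fold (limma, adjusted p = 0.00118). The peak 6368 bases downstream was low in both lines, at 0.744 ± 0.822 and 3.09 ± 0.994, and also passed the adjusted p but not the fold (limma, log2 fold change 1.32, adjusted p = 6.38e-05).

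At Epcam the peak nearest to the start site, with its centre 798 bases downstream, was the called one. It begins downstream of the annotated start. It read 2.94, 2.25, 0.150, 1.50 and 1.01 in αTC1 and 16.6, 19.9, 14.7, 15.1 and 8.92 in βTC6. The groups did not overlap, and the log2 fold change was 2.72 with a standard error of 0.29 (limma, adjusted p = 4.64e-08). The 3 upstream peaks had log2 fold changes of 1.18, 0.86 and -0.02 from the nearest to the farthest, and the farthest, 64361 bases upstream, was at 12.8 ± 2.92 in αTC1 and 12.5 ± 2.22 in βTC6 (SD, n = 5).

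At Gc the start-site peak, 29 bases from the start, read 2.66, 1.40, 0.751, 2.18 and 0.867 in αTC1 and 7.81, 6.56, 7.43, 4.71 and 10.9 in βTC6. The lines did not overlap and the adjusted p was 3.24e-06 (limma), but the log2 fold change of 1.74 with a standard error of 0.25 missed the fold required for a call. Tested with edgeR on the recovered reads it was 2.24 and was called.

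The Gc peak with the greatest difference of all 32 lies 234549 bases downstream of the start site, over a coding exon of Slc4a4, another bicarbonate transporter gene. It read 1.12, 0.140, 0.751, 0.955 and 1.16 in αTC1, which is 1 to 8 reads, and 19.9, 25.0, 26.1, 24.1 and 16.0 in βTC6. The log2 fold change was 3.68 with a standard error of 0.22 (limma, adjusted p = 1.51e-11).

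A second called Gc peak more open in βTC6 lies 80237 bases downstream, between genes, at 1.46 ± 1.07 against 9.29 ± 1.24 (SD, n = 5), a log2 fold change of 2.16. Without αTC1 replicate 1, the library with the lowest value, it was 1.95 and no longer called, while replicates 4 and 5 alone gave 1.57 and quantile normalization 1.79.

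In the same Slc4a4 gene, 256255 bases downstream of the Gc start, a peak went the other way. It read 13.7, 12.2, 12.3, 14.2 and 25.0 in αTC1 and 3.41, 2.05, 3.11, 0.713 and 2.82 in βTC6, a log2 fold change of -2.29 with a standard error of 0.26 (limma, adjusted p = 1.01e-07). Replicate 5 of αTC1 stood well above the other αTC1 libraries. The value was -2.12 without it and -1.85 in replicates 1 to 3 alone, where the peak was not called. Between these oppositely directed regions, 239442 bases downstream, lay a peak of 60.5 ± 11.6 in αTC1 and 56.2 ± 2.58 in βTC6 (SD, n = 5), with a log2 fold change of -0.09.

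Loxl4 had no peak within 2000 bases of its start site. The nearest, 11233 bases downstream in an exon of Loxl4, read 2.54 ± 0.80 in αTC1 and 2.19 ± 1.11 in βTC6 (SD, n = 5). The other, 43525 bases downstream in an intron of D19Ertd386e, was called higher in αTC1 although Loxl4 was near 0 counts in both lines. It read 10.5, 5.76, 7.51, 8.19 and 12.7 in αTC1 and 0.994, 3.28, 1.35, 0.428 and 0.282 in βTC6, a log2 fold change of -2.23 with a standard error of 0.29 (limma, adjusted p = 8.38e-07). In replicates 1 to 3 alone it was -1.68 and not called.

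Fap also had no peak within 2000 bases of its start site. The nearest, 15763 bases upstream, read 5.02 ± 0.53 in αTC1 and 10.1 ± 1.88 in βTC6, and both others lie in introns, at 1.13 ± 0.46 against 5.38 ± 1.06 and at 7.04 ± 1.46 against 2.16 ± 0.69 (SD, n = 5). All 3 differed by the adjusted p, in both directions, and none reached the fold for a call.

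The Ttr start-site peak, 151 bases downstream, read 23.9, 18.4, 18.5, 24.7 and 20.9 in αTC1 and 10.2, 14.4, 11.1, 12.1 and 9.95 in βTC6. The lines did not overlap, and the log2 fold change was -0.83 with a standard error of 0.13 (limma, adjusted p = 1.14e-05). Of the 7 Ttr peaks 4 were higher in αTC1 by the adjusted p, with log2 fold changes of -0.83 to -1.86, 1 was higher in βTC6 at 1.60, and 2 did not pass, at 0.01 and 0.02. Over all peaks 38.1% were higher in αTC1 and 39.9% in βTC6 by that measure. None of the 7 was called. The Ttr transcript gave a log2 fold change of 0.48, of the opposite sign and not past its threshold.

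**Figure D2:**
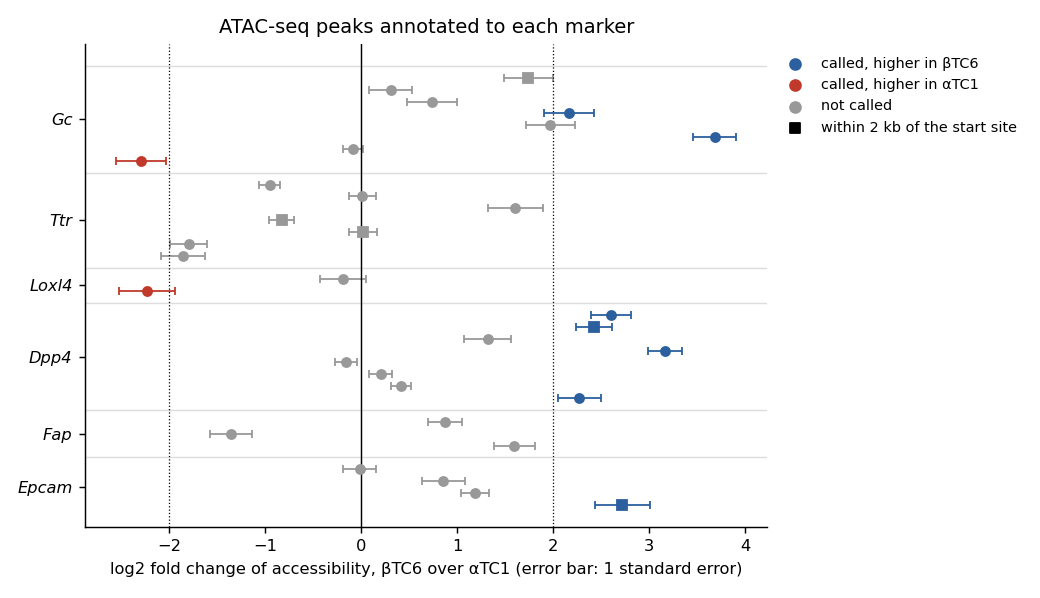
Difference in accessibility between the lines for all 32 peaks, grouped by gene and, within a gene, ordered by position relative to the start site with the most downstream peak at the bottom. The horizontal axis is the log2 fold change of βTC6 over αTC1 with 1 standard error, dotted lines mark an absolute value of 2, and squares lie within 2000 bases of the start site. The 7 blue peaks belong to Dpp4, Gc and Epcam, and the 2 red ones to Gc and Loxl4.

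Along chromosome 2 the direction of change switched between neighbours. Gcg was at 12113, 12267 and 14406 FPKM in αTC1 and at 249, 267 and 172 FPKM in βTC6 (edgeR, log2 fold change -5.76, adjusted p = 6.37e-08), whereas Dpp4 and Slc4a10 on one side were higher in βTC6 and Fap on the other was near 0 in both. Of the other neighbours Ifih1 and Gca were tested and not called, with log2 fold changes of -1.62 and 0.29, and Tbr1 and Kcnh7 stayed below the expression filter.

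Of the 11 peaks annotated to Gcg, 3 were called higher in αTC1 and 2 higher in βTC6. The Gcg start-site peak was at 154 ± 3.90 in αTC1 and 27.8 ± 3.81 in βTC6 (SD, n = 5), a log2 fold change of -2.44. The pair called higher in βTC6 lie 27022 and 27768 bases downstream of the Gcg start, on the side toward Dpp4, with log2 fold changes of 2.29 and 2.02.

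**Figure D3:**
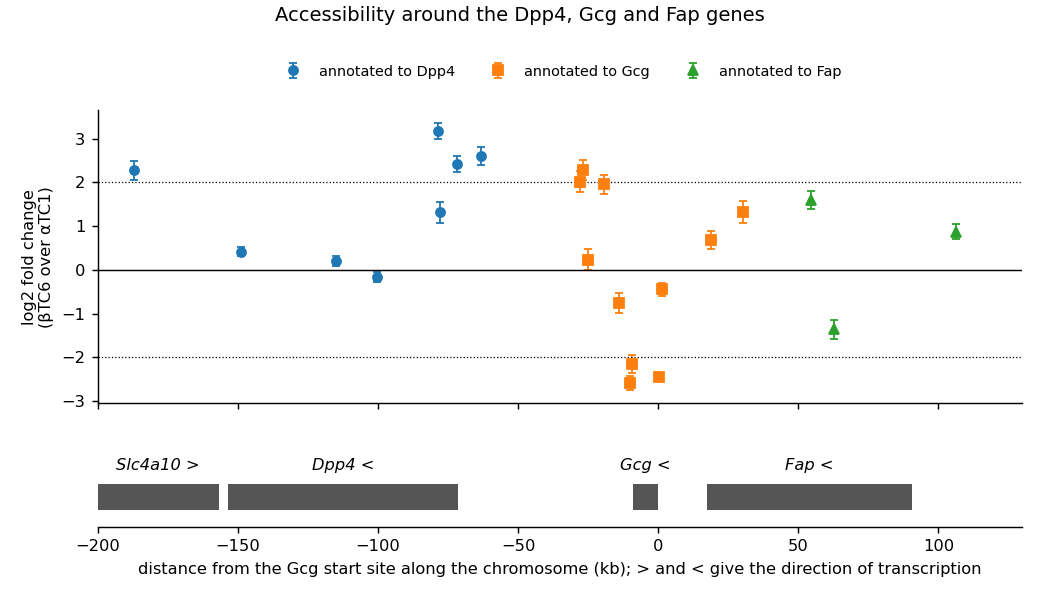
Difference in accessibility, as log2 fold change of βTC6 over αTC1 with 1 standard error, for the peaks annotated to Dpp4, Gcg and Fap, against the distance in kb from the Gcg start site. Grey bars below are the gene bodies, with Slc4a10 cut off at the left edge. The start-proximal peak of Dpp4 is at 2.43 and the start-site peak of Gcg at -2.44, and the 3 Fap peaks lie between -1.36 and 1.60.

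The mixtures, which did not enter the calls, were used to ask whether the called peaks followed the share of αTC1 cells. All 9 did, with an absolute Pearson r of 0.84 to 0.97 over the 9 mixtures and an adjusted p of at most 0.00575 (exact permutation test, two-sided, Benjamini-Hochberg over 9 peaks). The Spearman adjusted p was at most 0.0108 in the same exact test. Of all 11911 peaks called between the lines, 83.7% followed the share in the called direction with an r at least as large as that of the weakest of the 9, so this was common to called peaks.

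The Gc peak 234549 bases downstream followed most closely. From 10 to 90% αTC1 cells it read 17.6, 14.1, 12.1, 9.03, 6.43, 3.93, 4.45, 2.78 and 1.42, with r = -0.97 and rho = -0.98 (exact permutation test, adjusted p = 9.92e-05 and 0.000223), and r = -0.97 without the outermost mixtures. The Epcam start-proximal peak fell from 8.07 to 2.24 with r = -0.96, and -0.92 without the outermost mixtures. The Dpp4 start-proximal peak had r = -0.93 and the Dpp4 intronic peak r = -0.91, which became -0.92 for both without the outermost mixtures.

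The αTC1-open peaks rose. The Gc peak 256255 bases downstream went from 4.30 at 10% to 26.4 at 90% αTC1 cells (r = 0.93) and the Loxl4 peak from 1.48 to 7.31 (r = 0.86). The least close was the Gc peak 80237 bases downstream, with r = -0.84 (exact permutation test, adjusted p = 0.00575), which fell to -0.69 without the outermost mixtures and then no longer passed (exact permutation test, adjusted p = 0.0937).

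Levels in the mixtures were not simply the weighted mean of the pure lines. The 7 peaks more open in βTC6 were below that mean in 60 of 63 mixture values, with a median ratio to it of 0.60 to 0.85 by peak. Over all peaks called higher in βTC6 60.2% of mixture values were below it, and over peaks not called 56.4%, so values below the mean were not confined to these peaks. The Gc peak more open in αTC1 was above the weighted mean in all 9 mixtures, at a median of 1.40 times, whereas the Loxl4 peak was above it in 5. Over all peaks called higher in αTC1 38.5% of mixture values were below it, so values above it were not particular to these peaks. Each mixture was 1 library, and the share of reads in the top peak, given above, was higher in the mixtures than in replicates 1 to 3. Its part in the offset was not tested.

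**Figure D4:**
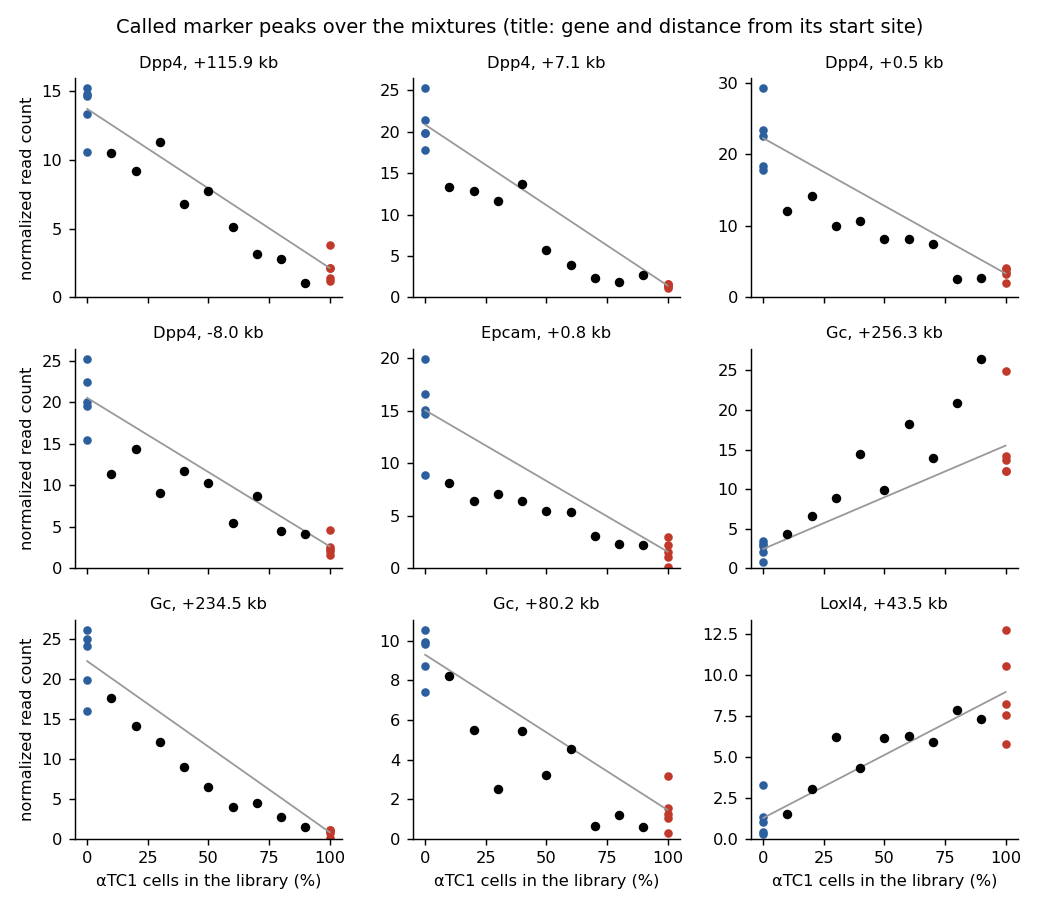
Normalized read count of the 9 called peaks against the percentage of αTC1 cells. Black points are the 9 mixtures, points at 0 and 100% are the 5 libraries of pure βTC6 and αTC1, and the grey line joins the means of the pure lines. The 7 peaks more open in βTC6 fall with the share of αTC1 cells, mostly below the line, and the Gc peak 256255 bases downstream rises above it.

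Relatives and partners of the markers were examined through lists. Of the prolyl peptidases and homologues other than Dpp4 and Fap all 8 were tested, with 1 higher in βTC6, 1 higher in αTC1 and a median log2 fold change of 0.38, beside 0.01 over all genes tested. The called ones were Dpp6 and Dpp10, which lack enzyme activity and modulate potassium channels. Dpp6 was at 16.7, 12.9 and 17.3 FPKM in βTC6 against 0.80, 1.19 and 1.33 in αTC1 (log2 fold change 3.87), and Dpp10 at 3.16, 3.61 and 3.61 against 33.2, 32.5 and 45.0 (log2 fold change -3.33). Dpp6 passed the filter through βTC6 alone. The cytosolic peptidases Dpp8 and Dpp9 were at 20.5 FPKM or more in every library and were not called.

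Of the substrates, partners and receptors linked to Dpp4, 5 of the 7 tested were higher in βTC6 and 1, Gcg, was higher in αTC1. Of those 5, 4 passed the expression filter through βTC6 alone, which favours a difference, and Npy was the exception. Npy, a peptide that Dpp4 can cleave, was at 1146, 1326 and 1591 FPKM in βTC6 and 4.69, 4.11 and 2.56 in αTC1. Glp1r, the receptor for glucagon-like peptide 1, was at 66.3, 48.5 and 74.3 FPKM in βTC6 and 0 in αTC1, at least 760-fold higher against the floor of 3 counts per library. Cd44, encoding an adhesion receptor for hyaluronan, was at 3.48, 3.97 and 3.63 against 0.04, 0 and 0 FPKM. The GIP receptor gene Gipr, at 6.77 to 14.4 against 0.05 to 0.78 FPKM, and the chemokine gene Cxcl12, at 4.78 to 8.02 against 0 to 0.11, were also called.

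Of the 7 vitamin D genes other than Gc 2 were tested and 1 was called, Vdr, the vitamin D receptor, which was at 5.84, 11.1 and 6.40 FPKM in βTC6 and 0.04, 0.09 and 0.05 in αTC1 (edgeR, log2 fold change 6.96, adjusted p = 5.61e-07) and passed the filter through βTC6 alone. The activating and degrading enzymes Cyp27b1 and Cyp24a1 stayed below the filter. Within the albumin family Alb itself had the opposite direction to Gc, at 1.60, 2.44 and 1.27 FPKM in αTC1 and 0.15, 0.19 and 0.06 in βTC6 (log2 fold change -3.64), and passed the filter through αTC1 alone.

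Of the thyroxine and retinol genes beside Ttr, Rbp4, the retinol-binding protein that travels with transthyretin, was called higher in αTC1. It was at 1240, 1273 and 1678 FPKM there and at 258, 189 and 183 FPKM in βTC6 (edgeR, log2 fold change -2.68, adjusted p = 9.6e-07). The retinoic acid receptor gene Rarb was also higher in αTC1 (-2.81) and the deiodinase gene Dio1 higher in βTC6 (6.41), each having passed the filter through its higher line alone.

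Among the lysyl oxidases Loxl2 was the one that passed the filter on low values. It was at 48.1, 52.1 and 48.0 FPKM in βTC6 and 8.69, 8.61 and 11.0 in αTC1 (edgeR, log2 fold change 2.37, adjusted p = 1.28e-07). Loxl3 was at 0.66 to 1.44 FPKM in αTC1 and 0.09 to 0.11 in βTC6, and Lox and Loxl1 were at 0.05 FPKM or less.

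Of the Epcam partners and epithelial genes, Epcam itself left out, 11 of 17 were tested, 5 were called higher in βTC6 and the other 6 were not called, with a median log2 fold change of 1.45. All 5 passed the expression filter through βTC6 alone, so this count and median depend on the filter. Cdh1, encoding E-cadherin, was at 9.31, 6.86 and 4.66 FPKM in βTC6 and 0, 0.03 and 0 in αTC1. The Kunitz protease inhibitor gene Spint2 was at 31.6, 32.5 and 22.3 against 0.16, 0.26 and 0.16 FPKM, and Spint1 at 4.94, 3.62 and 3.09 against 0.15, 0 and 0. Fhl2, a LIM domain protein gene, was at 2.65, 2.43 and 3.72 against 0, 0 and 0.03 FPKM. Cldn1, a tight junction claudin, was at 12.3 to 15.6 against 0.82 to 1.23 FPKM.

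Other surface and secreted genes that the study listed as shared by primary mouse and human alpha cells did not move as a block with the alpha line either. Of 16 secreted ones 12 were tested, with 8 higher in βTC6 and 1, Vegfc, higher in αTC1, and a median log2 fold change of 3.19. Of the 8, 4 passed the expression filter through βTC6 alone. Igfbp7, an insulin-like growth factor binding protein, was at 35.8, 22.7 and 31.0 FPKM in βTC6 and 0 in αTC1, at least 268-fold higher against the floor of 3 counts per library. Pappa2, a protease that cleaves such binding proteins, was at 236, 194 and 99.8 FPKM in βTC6 against 5.13, 5.10 and 10.2 in αTC1 (log2 fold change 4.74), and Ambp at 17.2, 16.4 and 7.87 against 0.04, 0.03 and 0.19 (7.21). The collagen gene Col9a2 was at 1.70, 1.53 and 1.56 against 0, 0.01 and 0.09 FPKM (7.20).

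Of 28 surface ones 24 were tested, with 8 higher in βTC6 and 4 higher in αTC1, and a median log2 fold change of 0.97. The filter was passed through the higher line alone by 6 of the 8 and 3 of the 4. Avpr1b, a vasopressin receptor gene, was at 39.3, 38.5 and 48.0 FPKM in αTC1 and 0 in βTC6, at least 1391-fold higher in αTC1 against the floor of 3 counts per library. Gpr119, a lipid receptor gene, was at 24.8, 25.6 and 23.5 FPKM in αTC1 against 0.90, 1.19 and 0.07 (log2 fold change -5.02). In the other direction, Kl, encoding klotho, was at 9.68, 8.80 and 6.00 FPKM in βTC6 and 0.01 to 0.03 in αTC1.

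**Figure D5:**
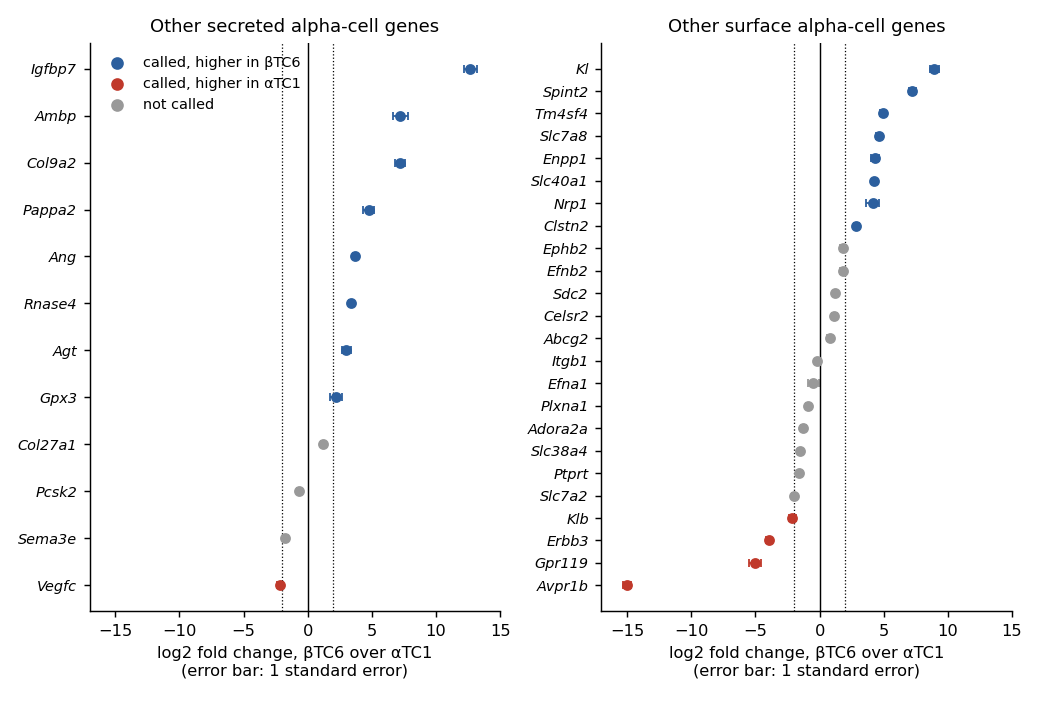
Log2 fold change of βTC6 over αTC1, with 1 standard error, for the tested secreted genes at the left and the tested surface genes at the right. Dotted lines mark an absolute value of 2. Genes called higher in βTC6 reach from Gpx3 at 2.19 to Igfbp7 on the left and from Clstn2 at 2.87 to Kl on the right, and the 5 called higher in αTC1 are Vegfc, Klb, Erbb3, Gpr119 and Avpr1b. The fitted values of Igfbp7 and Avpr1b rest on a line at 0 counts.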

How the data were processed

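RNA-seq and ATAC-seq of αTC1 and βTC6 and ATAC-seq of their mixtures were used as deposited, 25 samples in all. The authors made the RSEM 1.2.12 expected counts with Trim Galore 0.40 and Bowtie2 2.23 on mm9 transcripts, with ERCC spike-ins. FPKM values were deposited by the authors from the same run. The deposited ATAC-seq signal is a TMM-normalized read count per consensus peak, which the authors made with Trimmomatic 0.32, BWA 0.7.9a, Picard 1.95, MACS2 2.1.0 per library, DiffBind 2.2.5 and HOMER 4.6. All its values (100%, tolerance 0.01 read) were whole multiples of 1 step, so reads could be recovered. The authors' columns of differential and signature peak calls were not used. No column was left over (0).

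Expected counts were rounded and tested with edgeR 4.0.16 (quasi-likelihood, TMM, ERCC rows left out), where the study had added a spike-in correction not run here, and normalized read counts with limma 3.58.1 (trend, pseudocount 1) in R 4.3.3. DESeq2 1.42.0 and further settings were alternatives. A gene's standard error is derived from edgeR's F statistic. In tests on simulated data in which 200 features were shifted by 3 on the log2 scale, edgeR called 200 of them among 12195 genes and limma 195 among 65053 peaks, with 0 false calls each. The shifted features were drawn from genes and peaks well covered in αTC1. Recovery of features with few reads there, such as Gc, Dpp4 and Epcam, was not tested. Python 3.11.15, scipy 1.17.1 and matplotlib 3.10.9 gave the rest. Sequence and gene positions came from NCBIM37 with GENCODE vM1, in which no peak passed the end of any of 21 chromosomes (0).

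The members and gene lists were chosen with earlier results of these data known. All 6 genes are described, with every called peak and the peak nearest each start site. Of each list, counts and up to 4 genes with the largest called change are given, plus the family members and chromosome 2 neighbours the text turns on. Gipr, Cldn1, Cyp27b1, Cyp24a1, Spp1, Cd68, Serpina1a and Col3a1 and, in a caption, Gpx3, Clstn2, Klb and Erbb3 lay outside this rule and were chosen after their values were seen. Likeness took the 3 nearest tested genes by log2(FPKM + 1). A few genes are not reported here. Nearest-gene annotation is by start site and does not show which gene a region acts on. PCR reads are not independent molecules, so counting intervals and floors cover counting error only.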

Additional observations from a re-analysis of the deposited data

Results flagged for a closer look

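In both lines the normalized read counts of the 32 peaks were examined for a single library far from the other 4. Of these 64 groups 5 stood out, and chance flags about 1 in 20 groups. Replicate 5 of αTC1 accounted for 3 of the 5. It read 25.0 at the Gc peak 256255 bases downstream, where the other αTC1 libraries were at 12.2 to 14.2, and 80.9 at the Gc peak 239442 bases downstream, where they were at 52.8 to 58.0. At the Ttr peak 24236 bases upstream it read 83.6, below the 113 to 124 of the others. Replicate 1 of αTC1 read 2.66 at the Gc peak 157995 bases downstream, where the others were at 0.601 to 1.12. Replicate 1 of βTC6 read 4.83 at the Dpp4 peak 6368 bases downstream, where the others were at 2.43 to 2.996.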

How the results depend on the processing

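Gc, Dpp4 and Epcam stayed called higher in βTC6 under all 10 alternatives run for RNA-seq (DESeq2, ERCC spike-in scaling, no filter on low values, the replicate block and leaving out each library), and 3 markers were called in each. Without the filter the calls over all genes rose to 2510 higher in βTC6 and 1020 higher in αTC1, more genes being tested, and Fap and Loxl4 were tested and not called (edgeR, adjusted p = 0.133 and 0.396). A pseudocount of 5 in ATAC-seq left 2 marker peaks higher in βTC6 and 0 in αTC1, with 1668 and 819 over all peaks. The 2 that stayed were Dpp4 at 7111 and Gc at 234549 bases. With edgeR on recovered reads 11 marker peaks were higher in βTC6, with 13794 higher in βTC6 and 5739 in αTC1 over all peaks. In replicates 1 to 3 alone 7 marker peaks were called higher in βTC6 and 0 in αTC1, with 8157 and 3135 over all peaks. Quantile normalization gave 5655 peaks higher in βTC6 and 5126 in αTC1, so that 52.5% of calls were higher in βTC6, beside 70.6% as reported, with 5 marker peaks higher in βTC6 and 3 in αTC1. Dpp4 at 115857 and Gc at 80237 bases lost their calls under it, at 1.94 and 1.79. Without one library at a time, the marker peaks higher in βTC6 numbered 7 to 8 and those in αTC1 stayed at 2. No value of the 4 tested markers or of the 13 peaks carried through the alternatives changed sign in any of them, and of these single values 283 kept their call, which joins fold and adjusted p, 15 lost it, all ATAC-seq or mixture values, and 1, the Gc start-site peak, gained it. Of the 283, 2 crossed the adjusted p threshold without reaching the fold, namely Ttr expression without βTC6 replicate 3 and the Loxl4 peak at 11233 bases under quantile normalization (limma, -0.72, adjusted p = 0.00812). Deviations of same-numbered libraries of the lines correlated only weakly, at -0.04 to 0.07. Closest to their own number were 6 of 10 ATAC-seq and 1 of 6 RNA-seq libraries, so a weak pairing by number in ATAC-seq cannot be told from none. With the replicate block 7 and 2 marker peaks and 1241 and 503 genes were called higher in βTC6 and αTC1. Depth limits Fap and Loxl4, whose counts did not exceed 4, and the αTC1 values of peaks closed in that line, some of which rest on 1 read. Lines and growth media cannot be told apart.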
